A study of Mus musculus with 8 samples.

Results

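The genes described here encode the machinery that copies chromosomal DNA. They comprise 46 gene symbols, taken by name and sorted by role into origin licensing, helicase, clamp and clamp loader, polymerase, lagging-strand, fork protection and chromatin assembly genes. All 46 were matched to probes of the array, and 45 of them were among the 17092 features tested. Cdc7 gave too little signal to be tested. Each gene was represented by its brightest tested probe over the 8 arrays.

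The cells were dermal fibroblasts from the skin of newborn mice of the C57BL/6 strain, grown in medium with serum. One group (n = 4) had been transfected with control oligonucleotides, and the other (n = 4) with a mimic of miR-127-3p, a synthetic duplex that supplies the mature microRNA. Neither the sequence of the control oligonucleotides, the mimic's dose, nor the time after transfection is given in the sources used here. Nothing in the labels says that the samples of a group came from separate cultures or animals, so p-values measure the spread between these samples, which may be technical. For the controls numbered 3 and 6 the treatment label names both kinds of oligonucleotide. Their title and source name say control, and they were used as controls.

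A microRNA pairs with messenger RNAs mainly through its seed, bases 2 to 8 from the 5′ end, and lowers their stability or translation. The mature sequence that the mimic stands for is printed from RefSeq (GRCm38.p6, chr12:109592888-109592909, plus strand) with the seed in capitals. It is shown because the groups differ in whether they received it. Whether any replication gene carries a match to it was not tested.
mmu-miR-127-3p: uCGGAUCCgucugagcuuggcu

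A replication origin is prepared, or licensed, before S phase. The origin recognition complex with Cdc6 and Cdt1 loads the ring of 6 MCM proteins onto DNA. At the start of S phase the Cdc7-Dbf4 kinase and other factors add Cdc45 and the GINS complex, and the resulting CMG helicase unwinds the double helix. DNA polymerase alpha with its primase starts each new strand, polymerases epsilon and delta extend it on the sliding clamp PCNA, and nucleases and a ligase join the short lagging-strand pieces. Many of these genes are transcribed under E2F factors when cells enter the cycle and are low in cells that have left it.

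With the miR-127-3p mimic, 44 of the 45 tested replication genes fell (limma, adjusted p under 0.05) and 0 rose. Over all features tested, 18.3% fell and 15.9% rose. The set was chosen with earlier results of these data known, so its counts are descriptive. Of 38 further replication genes tested outside the set, 28 fell and 1 rose. By the fitted values the fall was at least 2-fold for 35 of the 45, against 3.88% of all features. Among the 37 genes whose probe was above background on all 8 arrays it was so for 27. The median log2 fold change was -1.33 over the 45 genes and 0.02 over all 17092 features. With Dscc1 and Dna2, for which only a lower bound of the fall can be given, set at that bound, 34 genes fell at least 2-fold and the median was -1.26. The largest falls of the MCM ring, the CMG partners and the polymerases were in Mcm5, Gins1 and Pola1, by 1.98, 2.14 and 1.97 on the log2 scale. The median log2 fold changes of these roles were smaller in size, at -1.19, -1.13 and -1.35. Gins3, a subunit of the GINS complex, was the only tested gene of the set that did not pass the test.

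The separation was visible on the single arrays. For 43 of the 45 genes all 4 mimic arrays lay below all 4 control arrays, which held for 19.0% of all features. Relative to each gene's control mean, the array median of the set was -1.02, -1.32, -1.41 and -1.41 on the mimic arrays 2, 4, 5 and 7. On the control arrays 1, 3, 6 and 8 it was 0.03, -0.09, -0.02 and 0.10. In a bulk sample, fewer cells in S phase and less of these transcripts per cell cannot be told apart.

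**Figure D1:**
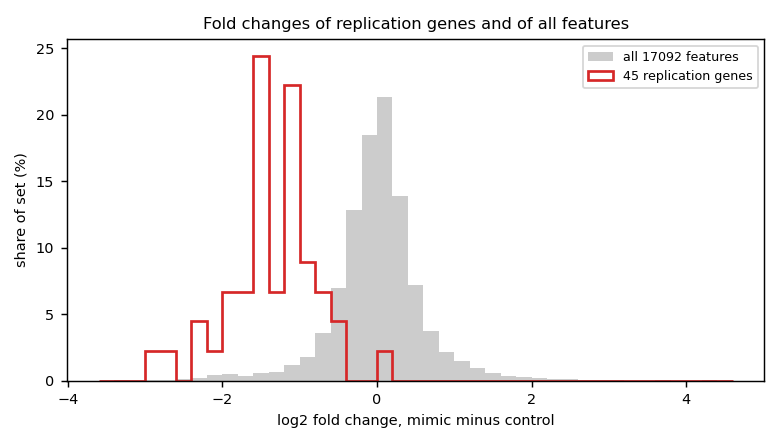
Distribution of log2 fold changes (mimic minus control, x axis) as a share of each set in percent (y axis), for all 17092 features in grey and for the 45 tested replication genes in red. The replication genes centre on -1.33 and all features on 0.02, and the single replication gene right of 0 is Gins3.

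The filter on dim probes bears on 8 of the 45 genes. A gene was tested if 4 or more of the 8 arrays read its probe well above background, and 37 genes met this on all 8. Of these 37, 36 fell, with a median of -1.18. The other 8 (Cdc6, Gmnn, Orc1, Cdc45, Mcm8, Dscc1, Pola2 and Dna2) passed on all 4 control arrays but on 0 to 3 mimic arrays, so the filter itself favours a fall for them, and all 8 are among the 35 with a fitted fall of at least 2-fold. With normexp background correction Cdc6, Orc1, Cdc45, Dna2, Mcm8 and Pola2 were 1.92-fold, 1.59-fold, 1.90-fold, 1.72-fold, 1.24-fold and 1.28-fold lower. This correction, which draws dim values together, moved the median of the 45 genes to -1.08 and left 43 calls. The gene whose call it ended was Mcm8.

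**Figure D2:**
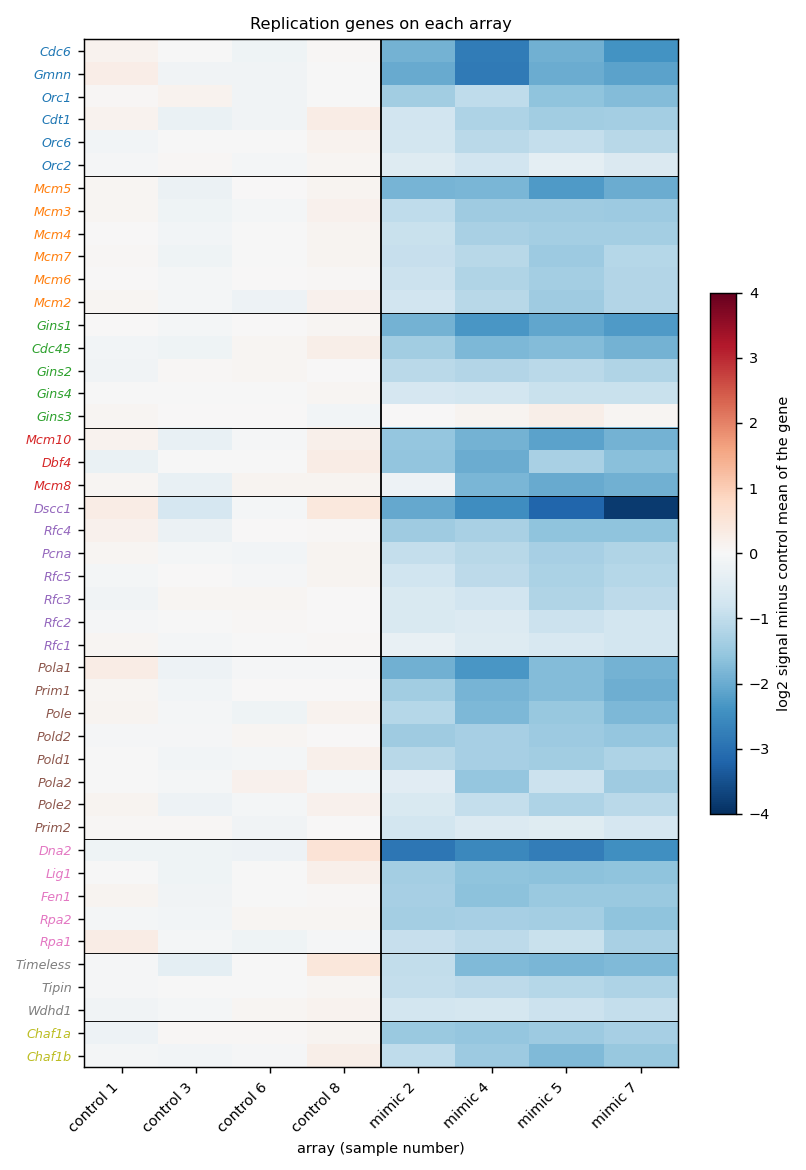
Signal of each tested replication gene (rows, coloured by role) on each array (columns), as log2 signal minus the gene's control mean, with blue for lower and red for higher. The 4 mimic columns are blue in every row except Gins3, but pale in some cells, such as Mcm8 and Rfc1 on mimic array 2.

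The arrays lay on 1 slide in 2 rows, each with 2 arrays per group. The median of the set was -1.14 within row 1 and -1.47 within row 2, and 34 and 41 genes were called within the rows alone. The value was lower in row 2 than in row 1 for 37 of the 45 genes and for 43.7% of all features. A limma term for the difference between rows, added after these values were seen, called 0 of the 45 genes and 0.00% of all features. At an unadjusted p under 0.05 it took 3 of the 45 genes and 5.17% of all features. Mimic array 2, in row 1, had the highest value of its group for 28 of the 45 genes and for 27.4% of all features. Control array 8, in row 2, was the highest control for 27 of the 45 genes and for 17.9% of all features. Control array 3, 1 of the 2 controls whose treatment label names both oligonucleotides, was the lowest control for 24 of the 45 genes and for 22.7% of all features. With any single array left out, 44 of the 45 genes fell. Without both controls whose treatment label names both oligonucleotides, 42 did. The 2 calls lost were Mcm8 (adjusted p = 0.0579) and Pola2 (adjusted p = 0.0502).

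The arrays of the groups overlapped in their number of detected probes. Between 20882 and 22637 probes were well above background on control arrays, and between 20751 and 23470 on mimic arrays (exact permutation test, two-sided, p = 0.629, adjusted p = 0.629 over 3 quality measures). Fibroblast markers were bright in both groups: the summed linear signal of 10 markers, in multiples of the array's 75th percentile, was 1385 to 1596 in controls and 1491 to 1546 with the mimic, and 2 of them rose and 2 fell. Markers of macrophages and other leukocytes were higher with the mimic: 8 of the 9 tested passed in that direction and 0 in the other. Their summed signal was 36.1 to 45.3 in controls and 63.9 to 74.9 with the mimic, and Ptprc, the pan-leukocyte gene, was above background on no array. Among 4 keratinocyte, 1 endothelial, 5 melanocyte or Schwann and 2 skeletal muscle markers tested, 2 rose and 0 fell. The part of such other cells in the fall of the replication genes was not tested.

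Promoter sequence was not used to choose the genes. RefSeq promoter windows (GRCm38.p6, 250 bases before to 50 after a transcript start) were listed for 36 of the 46 genes. The letters TTTCCCGC, TTTCGCGC, TTTGCCGC or TTTGGCGC, which are common forms of the E2F site, were searched on both strands. At least 1 of them was in a window of 14 of the 36 genes (38.9%), against 4.63% of the 9603 tested genes with a window and 2.26% of all 32851 windows of the same length. The median GC content of the windows was 60.8% for the 36 genes and 60.7% for the tested genes. A match of letters is a description and does not show that a factor binds there.

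Stretches from 6 of these windows show the matches in capitals, in either orientation, and 2 matches that overlap form 1 longer run of capitals. They are given 5′ to 3′ on the gene's strand and end before the transcript start. Cdc6, Mcm5, Mcm6, Orc1 and Pola1 are shown as examples of genes that fell. Gins3 is shown because it carries the same kind of match and did not pass the test. Mcm7 and Rfc3 also fell and have a match before the transcript start, but are not shown. The Mcm5 stretch is chr8:75109316-75109407 (plus strand), Mcm6 is chr1:128359706-128359855 (minus), Orc1 is chr4:108579387-108579453 (plus), Cdc6 is chr11:98907973-98908060 (plus), Pola1 is chrX:93632246-93632333 (minus) and Gins3 is chr8:95633478-95633558 (plus).
Mcm5: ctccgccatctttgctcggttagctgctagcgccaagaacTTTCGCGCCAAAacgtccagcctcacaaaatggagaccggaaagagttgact
Mcm6: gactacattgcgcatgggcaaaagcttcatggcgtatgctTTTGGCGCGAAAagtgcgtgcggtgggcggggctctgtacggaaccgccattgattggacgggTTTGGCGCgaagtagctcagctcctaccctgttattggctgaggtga
Orc1: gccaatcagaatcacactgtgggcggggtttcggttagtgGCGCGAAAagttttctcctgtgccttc
Cdc6: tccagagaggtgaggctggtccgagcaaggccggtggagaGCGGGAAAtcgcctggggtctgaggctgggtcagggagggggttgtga
Pola1: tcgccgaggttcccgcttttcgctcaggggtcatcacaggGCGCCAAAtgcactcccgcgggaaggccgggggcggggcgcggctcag
Gins3: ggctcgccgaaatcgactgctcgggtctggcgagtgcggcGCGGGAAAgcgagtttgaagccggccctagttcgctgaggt

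The fitted changes are given for genes with and without these letters, with no test between them. The median log2 fold change was -1.30 over the 14 tested genes with a match and -1.44 over the 21 without. The 14 ranged from -2.25 (Cdc6) to 0.10 (Gins3). The smallest fall among the 21 was -0.55 (Rfc1). The CHR letters TTTGAA or TTCGAA are read by complexes that regulate cell cycle genes. They were in a window of 9 of the 36 genes (25.0%) and of 16.5% of tested genes. CCAAT was in 21 (58.3%), against 42.5%, and the GC box GGGCGG was in 26 (72.2%), against 68.1%. A window with none of these letters says nothing about the factors that act there.

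All 6 tested genes of origin recognition and licensing fell, with a median log2 fold change of -1.31. Signals below are log2 values relative to the array's 75th percentile, which is 0, in the order control arrays 1, 3, 6 and 8 and then mimic arrays 2, 4, 5 and 7. Cdc6, the ATPase that joins the origin complex to load the MCM ring, read -0.49, -0.63, -0.80 and -0.57 in controls and -2.52, -3.43, -2.56 and -3.001 with the mimic. Every mimic array was more than 1 unit below the lowest control array. The fitted change of Cdc6 was -2.25 on the log2 scale (SE 0.20, limma adjusted p = 9.33e-05), and -0.94 with normexp. Its probe was above background on 1 of 4 mimic arrays. Its second probe (-2.44) was above background on 4 of 8 arrays and had its mimic mean at -3.75, so it too passed through the controls and gives no independent support.

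Gmnn encodes geminin, the protein that binds Cdt1 and blocks relicensing after S phase has begun. It read 0.85, 0.44, 0.43 and 0.57 in controls and -1.44, -2.25, -1.40 and -1.55 with the mimic, which is -2.23 as a log2 fold change (SE 0.20, adjusted p = 9.21e-05; -1.37 with normexp). Cdt1, its partner and the loader of the ring, fell from 4.10 ± 0.25 (SD, n = 4) to 2.92 ± 0.28, a fitted log2 change of -1.18 (SE 0.17, adjusted p = 0.00120). Both the licensing factor and its inhibitor were lower on every mimic array than on any control array. The call of Cdt1 was lost within slide row 1 alone (adjusted p = 0.0753).

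The 3 member genes of the origin recognition complex all fell. Orc1, the ATPase subunit whose level follows the cell cycle, read -0.59, -0.52, -0.80 and -0.67 in controls and -2.04, -1.65, -2.27 and -2.38 with the mimic, a fitted log2 change of -1.44 (SE 0.16, adjusted p = 0.000282; -0.67 with normexp). Its probe was above background on 2 of 4 mimic arrays. Orc6 had a log2 fold change of -0.97 (SE 0.10), and -0.997 with normexp, so the order of Orc1 and Orc6 depends on background treatment. Orc2, a core subunit, read 0.42, 0.52, 0.37 and 0.54 in controls and -0.04, -0.29, 0.07 and -0.13 with the mimic. This was the smallest fall of the licensing genes, a fitted log2 change of -0.56 (SE 0.09, adjusted p = 0.00265), or 1.47-fold lower. Its call was lost within slide row 1 (adjusted p = 0.0701) and row 2 (adjusted p = 0.114). The subunits Orc3, Orc4 and Orc5, listed as further pathway genes, had log2 fold changes of -0.43 (adjusted p = 0.0188), -0.15 (adjusted p = 0.271) and -0.07 (adjusted p = 0.8002). The call of Orc3 held in 17 of 22 settings and was lost without mimic array 7 (adjusted p = 0.0542), with array-median scaling (adjusted p = 0.0507), without a filter (adjusted p = 0.0788) and within either slide row (adjusted p = 0.159 and 0.183).

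All 6 genes of the MCM ring, the core of the replicative helicase, fell at least 2-fold. Each was above background on all 8 arrays, and normexp gave log2 fold changes between -1.88 and -1.05. Mcm5 read 4.25, 3.94, 4.17 and 4.28 in controls and 2.30, 2.32, 1.91 and 2.17 with the mimic. Its log2 change of -1.98 (SE 0.12, adjusted p = 1.87e-05) corresponds to 3.96-fold lower signal. Mcm2 read 2.72, 2.55, 2.44 and 2.81 in controls and 1.88, 1.52, 1.22 and 1.44 with the mimic, the smallest fall of the ring at -1.12 (SE 0.15, adjusted p = 0.000772). Both groups were tight relative to these differences. The other 4 ring genes lay close together, at -1.33 for Mcm3, -1.23 for Mcm4, -1.16 for Mcm7 and -1.15 for Mcm6. Mcm5 had the largest fall of the ring, and its difference from Mcm7 is tested with the partner pairs.

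Of the 5 CMG partners, which join the ring to make the active helicase, 4 fell. Gins1 read 1.88, 1.78, 1.88 and 1.93 in controls and -0.03, -0.46, -0.22 and -0.39 with the mimic. Its log2 change of -2.14 (SE 0.11, adjusted p = 1.28e-05) corresponds to 4.41-fold lower signal. Cdc45, the factor that holds the GINS complex and the ring together, had a log2 fold change of -1.70 (SE 0.13; -0.93 with normexp). Gins2 and Gins4 had log2 fold changes of -1.13 (SE 0.08) and -0.80 (SE 0.08). Gins3 read 4.59, 4.51, 4.52 and 4.40 in controls and 4.52, 4.61, 4.72 and 4.58 with the mimic. The groups overlapped, and the log2 fold change was 0.10 (SE 0.08, 95% interval -0.08 to 0.29, adjusted p = 0.348). Over the 22 settings its log2 fold change ranged from 0.01 to 0.19 and it was called in 0. Gins3 has 1 probe on the array, so no second probe bears on it.

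The firing kinase and the MCM relatives were represented by 3 tested genes, and all 3 fell. Mcm10, which helps the helicase start to unwind, read 2.44, 2.02, 2.25 and 2.53 in controls and 0.77, 0.40, 0.18 and 0.43 with the mimic, a fitted log2 change of -1.86 (SE 0.15, adjusted p = 6.69e-05). Dbf4, the regulatory subunit of the firing kinase, had one of -1.64 (SE 0.17; -1.09 with normexp). Its catalytic partner Cdc7 was above background on 1 control array and on 0 mimic arrays, and was not tested. Mcm8, an MCM relative that works in repair by recombination, read -1.59, -1.95, -1.55 and -1.56 in controls and -1.87, -3.50, -3.68 and -3.59 with the mimic. On this probe, the brighter of 2, mimic array 2 lay within the control range and the other 3 well below it. On the second probe all mimic arrays lay below all control arrays (log2 fold change -1.75). That probe was above background on 4 of 8 arrays, with a mimic mean of -3.64, and gives no exact fold change. By the brighter probe the log2 fold change of Mcm8 was -1.50 (SE 0.37, adjusted p = 0.0153), and -1.93 without mimic array 2. The call was lost with normexp (-0.31, adjusted p = 0.0778), within slide row 1 (-0.92, adjusted p = 0.326) and without both controls of double label (-1.59, adjusted p = 0.0579). The brighter probe was above background on 1 of 4 mimic arrays.

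**Figure D3:**
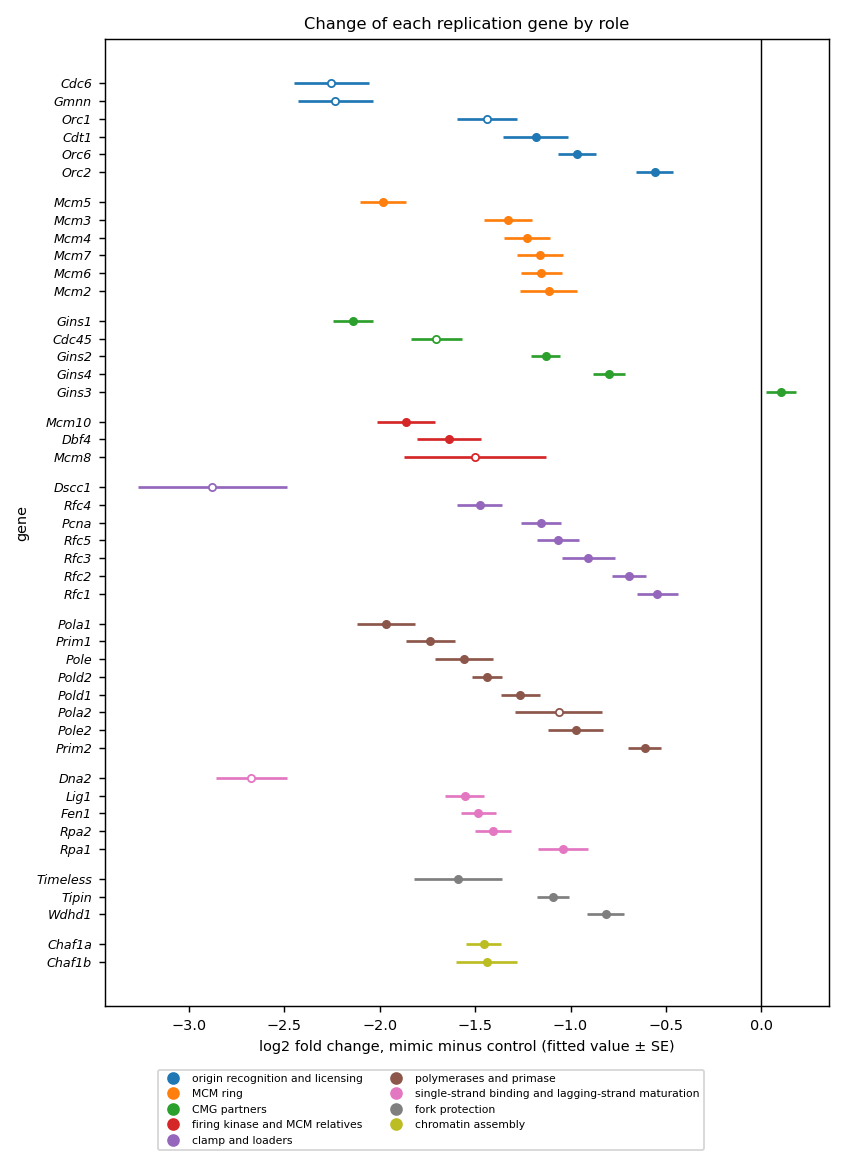
Log2 fold change (mimic minus control, x axis) with its standard error for each tested replication gene (y axis), grouped and coloured by role. Open points mark genes not above background on all 8 arrays. The fitted points of Dscc1 and Dna2, above background on no mimic array, are not exact fold changes. Of the 45 points 44 lie left of 0, and Gins3 is at 0.10.

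The sliding clamp and its loaders all fell, 7 of 7, with a median log2 fold change of -1.06. Pcna, the clamp that holds polymerases on DNA, read 5.03, 4.86, 4.84 and 5.06 in controls and 4.01, 3.83, 3.61 and 3.73 with the mimic, a fitted log2 change of -1.15 (SE 0.11, adjusted p = 0.000120). The 5 subunits of replication factor C, which opens and loads the clamp, were graded. Rfc4 had the largest fall at -1.48 (SE 0.12, second probe -1.51), followed by Rfc5 at -1.06, Rfc3 at -0.91 and Rfc2 at -0.69. Rfc1, the large subunit, read 3.23, 3.07, 3.16 and 3.20 in controls and 2.88, 2.65, 2.52 and 2.43 with the mimic, the smallest fall among all 44 genes that fell (-0.55, SE 0.11, adjusted p = 0.00544). The calls of Rfc1, Rfc2 and Rfc3 were lost within slide row 1 alone (adjusted p = 0.188, 0.0690 and 0.0694).

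Dscc1, a subunit of the alternative loader that acts in sister chromatid cohesion, read -0.45, -1.42, -0.84 and -0.33 in controls and -2.80, -3.26, -3.92 and -4.58 with the mimic. It was above background on 0 of 4 mimic arrays and is given as a bound of at least 3.23-fold lower. The bound sets the control mean against the higher of the dimmest signal above background and the gene's own signal on each mimic array. The limma adjusted p = 0.000888 belongs to the fitted change, which uses signals not above background, and not to this bound. Chtf18 and Atad5, large subunits of 2 alternative clamp loader complexes, belong to the further pathway genes and had log2 fold changes of -1.94 (SE 0.11) and -1.76 (SE 0.19). Chtf18 and Atad5 thus had larger falls than Rfc1, a difference that was not tested. Chtf8, a further subunit of the loader that holds Dscc1 and Chtf18, did not pass. Its log2 fold change was -0.03 (limma adjusted p = 0.916), and its groups overlapped.

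All 8 polymerase and primase genes fell, with a median of -1.35. Pola1, the catalytic subunit of polymerase alpha, read 2.18, 1.68, 1.85 and 1.86 in controls and -0.02, -0.44, 0.15 and 0.01 with the mimic, a fitted log2 change of -1.97 (SE 0.15, adjusted p = 5.38e-05). Prim1, the catalytic primase subunit, had one of -1.73 (SE 0.13), whereas Prim2, the regulatory primase subunit, had the smallest of the 8. Prim2 read 2.36, 2.36, 2.17 and 2.31 in controls and 1.58, 1.75, 1.82 and 1.62 with the mimic (-0.61, SE 0.09, adjusted p = 0.00109), and did not pass within slide row 2 (adjusted p = 0.0970). Pola2, the accessory subunit of polymerase alpha, had a fitted log2 change of -1.06 (SE 0.23, adjusted p = 0.00784) with 2 of 4 mimic arrays above background, and -0.36 with normexp (adjusted p = 0.0467). Its call was lost within slide row 1 (adjusted p = 0.173) and within slide row 2 (adjusted p = 0.0548).

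The genes of polymerases epsilon and delta fell in both their catalytic and accessory subunits. Pole, the catalytic subunit of polymerase epsilon, had a log2 fold change of -1.56 (SE 0.15), and its second probe was above background on 0 arrays. Pold1, the catalytic subunit of polymerase delta, had one of -1.26 (SE 0.10). For the accessory subunits the values were -0.97 (SE 0.15) in Pole2 and -1.44 (SE 0.08) in Pold2. The call of Pole2 was lost within slide row 1 (adjusted p = 0.0807). Further subunits of both enzymes were read from the pathway list. Pole3 had a log2 fold change of -0.94 (SE 0.11) and Pole4 one of -0.21 (adjusted p = 0.127). Pold3 fell by 0.92 on the log2 scale (SE 0.13, adjusted p = 0.00125), a call lost within slide row 1 (adjusted p = 0.0938). Pold4, the small subunit that is lost from polymerase delta during S phase and after DNA damage, read 1.93, 2.27, 2.04 and 1.91 in controls and 3.05, 3.22, 2.83 and 2.91 with the mimic. All 4 mimic arrays lay above all 4 control arrays, and Pold4 rose by 0.96 on the log2 scale (SE 0.12, adjusted p = 0.000498), 1.94-fold.

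**Figure D4:**
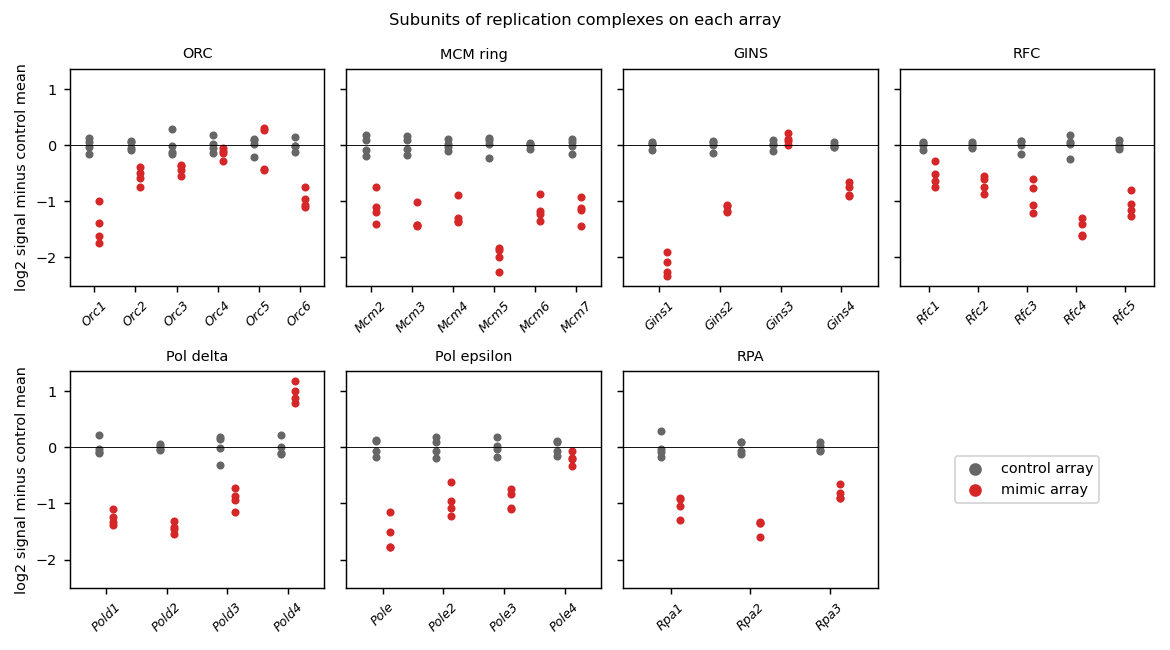
Signal of each subunit of 7 replication complexes on each array (y axis: log2 signal minus the gene's control mean), with control arrays in grey and mimic arrays in red. Gins3 stays at the control level while Gins1, Gins2 and Gins4 are lower, and Pold4 is higher while Pold1, Pold2 and Pold3 are lower.

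The 5 genes of single-strand binding and lagging-strand maturation all fell at least 2-fold by the fitted value. Dna2, a nuclease that trims long flaps, read -1.93, -1.90, -1.94 and -1.19 in controls and -4.64, -4.32, -4.51 and -4.18 with the mimic. It was above background on 0 of 4 mimic arrays and was at least 1.67-fold lower by the bound described for Dscc1. Its limma adjusted p = 3.34e-05 likewise belongs to the fitted change and not to the bound. Lig1, the ligase that seals lagging-strand pieces, and Fen1, the flap nuclease that trims them, had close log2 fold changes of -1.56 (SE 0.10) and -1.48 (SE 0.09). Rpa2 had one of -1.41 (SE 0.09). Rpa1, the large subunit of the protein that coats single-stranded DNA, read 5.57, 5.20, 5.10 and 5.24 in controls and 4.36, 4.23, 4.38 and 3.99 with the mimic (-1.04, SE 0.13, adjusted p = 0.000571). Rpa3, the remaining subunit, fell by 0.82 (SE 0.08), so all 3 RPA genes were lower.

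Fork protection and chromatin assembly genes fell as well, 3 of 3 and 2 of 2. Timeless, which stabilises stalled forks, read 2.38, 2.03, 2.42 and 2.88 in controls and 1.43, 0.65, 0.60 and 0.66 with the mimic, a fitted log2 change of -1.59 (SE 0.23, adjusted p = 0.00120). Its call was lost within slide row 1 (adjusted p = 0.0780). Its second probe was above background on 4 of 8 arrays, with a mimic mean of -3.33, and gives no exact fold change. Its binding partner Tipin had one of -1.09 (SE 0.08). Wdhd1, which couples the helicase to polymerase alpha, read 0.65, 0.69, 0.87 and 0.91 in controls and 0.04, 0.08, -0.08 and -0.17 with the mimic (-0.82, SE 0.10, adjusted p = 0.000415), and did not pass within slide row 1 (adjusted p = 0.0544). Chaf1a and Chaf1b, subunits of the chaperone that places histones on new DNA, had log2 fold changes of -1.46 (SE 0.09, adjusted p = 2.27e-05) and -1.44 (SE 0.16, adjusted p = 0.000292). Chaf1a read 2.66, 2.90, 2.89 and 2.97 in controls and 1.37, 1.32, 1.40 and 1.53 with the mimic. Chaf1b read 4.09, 4.08, 4.13 and 4.42 in controls and 3.16, 2.72, 2.42 and 2.67 with the mimic.

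Median log2 fold changes were -1.31 for licensing, -1.19 for the MCM ring and -1.13 for the CMG partners. For the 3 tested genes of firing kinase and MCM relatives the median was -1.64. It was -1.06 for clamp and loaders, and -1.35 for polymerases and primase. The other medians were -1.48 for lagging-strand maturation (-1.41 with Dna2 at its bound), -1.09 for fork protection and -1.45 for chromatin assembly. Role medians were not taken with normexp, which gave smaller falls for dim genes such as Cdc6 (-0.94), Orc1 (-0.67) and Pola2 (-0.36). The order of the role medians thus rests partly on dim probes and may change with background treatment. Of the 6 licensing genes, 3 were above background on all 8 arrays, as were all 6 of the MCM ring. Within clamp and loaders, leaving out Dscc1 with its bound, values ran from -1.48 to -0.55. No difference between roles was tested.

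Whether partner proteins changed by unequal amounts was asked of 18 pairs, of which 17 could be tested because Cdc7 was not. On each array the log2 signal of the second gene was subtracted from that of the first, and the 2 groups were compared by an exact permutation test (two-sided, 70 assignments, smallest possible p = 0.0286). Of the 17 pairs, 10 passed (adjusted p = 0.0486 over the 17), which are those whose groups did not overlap. The pairs were chosen with earlier results of these data known, so this count is descriptive. Over every pair of the 17092 features tested, the within-array difference separated the groups in 35.4%. Gins1 minus Gins3 changed most, by -2.24 (SE 0.13), so that Gins1 fell 4.74-fold relative to Gins3. Prim1 fell by 1.12 (SE 0.17) more than Prim2, and Cdc6 by 1.29 (SE 0.19) more than Orc6. Cdt1 minus Gmnn changed by 1.05 (SE 0.25), so the inhibitor fell further than the loader. Mcm5 minus Mcm7, between bright probes, changed by -0.83 (SE 0.05).

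Unequal change between a dim and a bright gene depends on background treatment. With normexp the groups were apart for 8 of the 17 pairs, each at the smallest possible p of the exact permutation test (0.0286). With 8 such pairs and not 10, this p adjusts to 0.0607, so 0 passed. By their arrays, 6 of the 10 pairs kept groups that did not overlap, in the same direction: Gins1 and Gins3, Mcm5 and Mcm7, Pcna and Rfc1, Pola1 and Pola2, Prim1 and Prim2, and Pole and Pole2. For Orc1 minus Orc2 (-0.22), Cdt1 minus Gmnn (0.22), Rfc3 minus Rfc1 (-0.13) and Cdc6 minus Orc6 (0.05) the groups overlapped with normexp, the last with its sign turned. The other two pairs apart with normexp had not passed before: Mcm2 minus Mcm8 turned from 0.39 to -0.74 and Cdc45 minus Mcm10 went from 0.16 to 0.60. Pold1 minus Pold2 (-0.07), Rpa1 minus Rpa2 (-0.12) and Chaf1b minus Chaf1a (-0.13) also turned sign with normexp, with groups that overlapped. For 7 pairs the test did not pass, which does not show that the partners changed alike. Their differences were 0.39 (SE 0.33) for Mcm2 minus Mcm8, 0.16 (SE 0.12) for Cdc45 minus Mcm10, 0.18 (SE 0.11) for Pold1 minus Pold2 and 0.37 (SE 0.14) for Rpa1 minus Rpa2. Fen1 minus Lig1 differed by 0.07 (SE 0.07), Tipin minus Timeless by 0.50 (SE 0.22) and Chaf1b minus Chaf1a by 0.02 (SE 0.18), with adjusted p-values of the exact permutation test from 0.0883 to 0.971 over the 7 pairs.

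**Figure D5:**
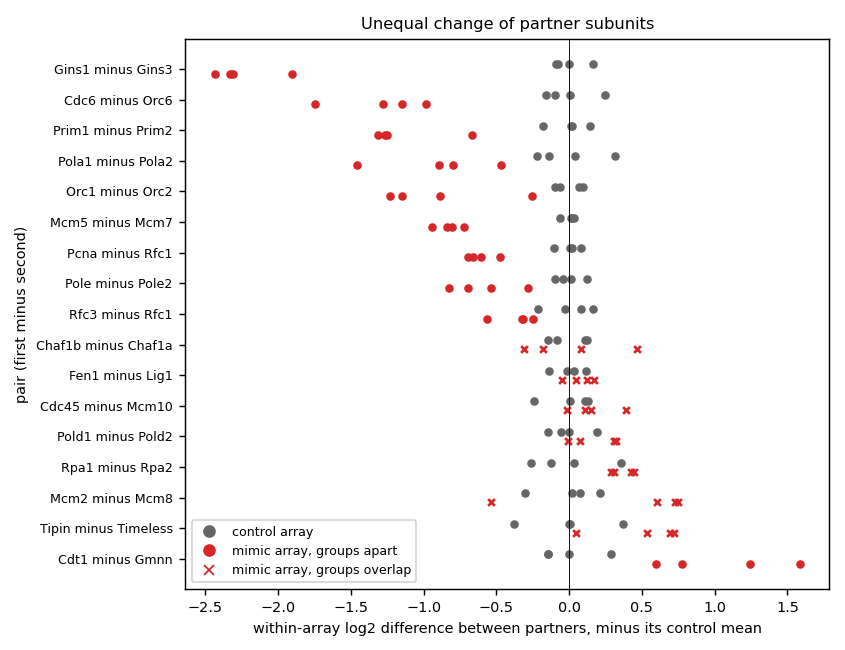
Within-array log2 difference between 2 partner genes minus its control mean (x axis) for the 17 tested pairs (y axis), with control arrays in grey and mimic arrays in red. Circles mark the 10 pairs whose groups do not overlap, and crosses the 7 that overlap. Gins1 minus Gins3 lies furthest from 0, at -2.24 on average.

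Of 40 further replication genes, a list that holds no member of the set above, 38 were tested, 28 fell and 1 rose (18.3% and 15.9% of all features), with a median log2 fold change of -0.79. The largest falls were in Ticrr, a firing factor, at -2.24 (SE 0.21, adjusted p = 0.000122), in the helicase gene Recql4 at -2.10 (SE 0.16) and in the exonuclease gene Exo1 at -2.03 (SE 0.19). Ticrr read 1.29, 0.93, 0.96 and 1.33 in controls and -0.71, -1.54, -0.80 and -1.40 with the mimic. Pold4 gave the only rise. The 9 that did not pass were Ddb1, Pole4, Wrnip1, Ctc1, Orc4, Orc5, Cul4a, Chtf8 and Stn1, with log2 fold changes between -0.21 and 0.42. Several of these, among them Ddb1, Cul4a and Ctc1, also serve in processes outside S phase. In contrast, Orc4, Orc5, Pole4 and Chtf8 are subunits of complexes described above. Whether such roles bear on the change of a gene was not tested. Asf1a and Mcm9 were above background on 0 arrays and were not tested.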

How the data were processed

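The authors deposited 1 Agilent scanner table per sample, which holds spot intensity values. Per the file headers, Feature Extraction 11.5.1.1 made it, and its processed signal had background and spatial trend removed on each array, without scaling between arrays. The deposited value table holds log2 values, and each column differs from log2 of that array's processed signal by a constant (SD at most 2.78e-07) close to its 75th percentile, with genes not centred.

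Of 62976 spots, 3671 were controls and were left out, as were outlier spots. No spot was saturated. Spots of a probe were averaged, giving 55681 probes, and each array's 75th percentile was subtracted from the log2 signal. Accessions named 28331 probes through a RefSeq table of GRCm38.p6, used for names alone. A probe was tested if well above background on at least 4 of 8 arrays, and the brightest probe stood for a gene. limma 3.58.1 (R 4.3.3, lmFit and eBayes, two-sided) compared mimic with control over 17092 features with Benjamini-Hochberg adjustment and threshold 0.05, after a check on simulated data. Standard errors of genes come from this fit, and those of pairs from the spread of the 4 differences in each group. Alternatives were normexp (offset 50, on median spot and background signals, as mean spot signals were not used here), quantile or median scaling, the deposited values, other filters, probes averaged, slide row or column as a block or alone, a limma trend, and each array left out. The precision of values is limited by the number of arrays.

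The members, roles, lists and pairs were chosen with earlier results of these data known. Of each role the members with the largest and smallest change are given on every array. Of the further pathway genes the 3 called genes per direction with the largest change are named, with subunits of the complexes described, and some further members on every array, added after their values were seen. The share of feature pairs that separate the groups, the medians with bounds, the row-by-treatment term and the removal of both controls of double label were added after seeing the data. Promoter and microRNA sequences come from RefSeq tables of GRCm38.p6, matched by symbol.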

Additional observations from a re-analysis of the deposited data

Results flagged for a closer look

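In 9 of 90 groups of 4 arrays (45 tested replication genes in controls and with the mimic), 1 array lay far from the other 3 by Dixon's criterion. Chance gives about 1 in 20 independent groups. These 90 groups share the same 8 arrays and are not independent, so their count cannot be judged against that rate. With the mimic, array 2 was the high one for Mcm3 (3.35, others 2.93 to 2.95), Mcm4 (4.07, others 3.59 to 3.66), Lig1 (3.01, others 2.74 to 2.79), Timeless (1.43, others 0.60 to 0.66) and Mcm8 (-1.87, others -3.68 to -3.50). Mimic array 7 was the low one for Rpa2 (-0.60, others -0.35 to -0.33). Among controls, array 8 was the high one for Dna2 (-1.19, others -1.94 to -1.90) and Chaf1b (4.42, others 4.08 to 4.13), and array 3 the low one for Mcm8 (-1.95, others -1.59 to -1.55). All values are log2 signals relative to the array's 75th percentile. Control array 3 lay below mimic array 2 for the brighter probe of Mcm8. For the other genes named here, all mimic arrays lay below all control arrays.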

How the results depend on the processing

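The count of replication genes that fell was 34 to 45 over the 22 settings, with 44 for each array left out, and 0 rose in any. Of 937 log2 fold changes of single genes under the alternatives, 921 stayed on their side of the threshold and 16 lost their call, 13 of them within 1 slide row. The median of the 45 genes was -1.08 with normexp. Counts moved where fewer features or arrays were tested: origin licensing had 3 of 3 with probes above background on all 8 arrays, where 6 of 11 pairs had groups that did not overlap, and within slide row 1 alone 4 of 7 clamp and loader genes, 1 of 3 fork protection genes and 16 of 38 further pathway genes fell. The rise count of the further pathway genes was 2 with quantile scaling, with a limma trend and with probes above background on all 8 arrays, and 1 to 2 with single arrays left out. All features called were 5852, with 3657 without a filter, 1759 within row 1 and 1611 within row 2. The difference Cdc6 minus Orc6 turned from -1.29 to 0.055 with normexp, and the cause was not tested. Under normexp 0 of 17 pairs passed. There 8 pairs had the smallest possible p of the exact permutation test, which adjusts to 0.0607 over the 17 pairs. Pairs with groups that did not overlap numbered 10 to 12 with single arrays left out. No paired analysis by sample number was possible because the groups share none. Each slide column holds 1 control and 1 mimic array, and with the column as a block 44 genes of the set and 4010 features were called. Dim signal limits the fold changes of 8 genes, and the number of arrays limits all.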

Other observations

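The E2F letters searched above were also in promoter windows of 10 of 34 further pathway genes (29.4%). Among tested genes with a window they were in 8.38% of the 1968 that fell and in 3.67% of the other 7635. No test was made of these shares.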
